A study of Bos taurus with 18 samples.

Results

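The endoplasmic reticulum (ER) stress response was followed in cow liver through 38 listed genes, chosen by symbol: a gene was represented by the probe set whose platform annotation carries its symbol alone. Of the 38, 37 genes were measured, each by 1 probe set, among 18010 genes with such a probe set on the array. The remaining gene, PDIA6, shares its probe set with another symbol and is not reported. The animals were 18 multiparous Holstein cows, with 1 liver biopsy and 1 Affymetrix Bovine Gene 1.0 ST array per cow. In 9 niacin cows the silage-based mixed ration carried niacin protected from rumen microbes, so that part of it reaches the gut, from 3 weeks before expected calving. The dose was 79 mg per kg of body weight, which the labels equate with 47 mg reaching the duodenum and 31 mg that can be absorbed. The 9 control cows ate the same rations without it, and all biopsies were taken 1 week after calving. Each animal is named by its group and cow number.

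The ER is where liver cells fold the plasma proteins they secrete, and misfolded protein in its lumen activates 3 membrane sensors, IRE1 (ERN1), PERK (EIF2AK3) and ATF6. In mammalian cells, cleaved ATF6 and the spliced form of XBP1 raise the genes for chaperones, disulfide isomerases and ER-associated degradation. PERK phosphorylates eIF2alpha, which slows translation but favours ATF4, and ATF4 in turn raises ATF3, DDIT3 (CHOP), TRIB3 and amino acid genes such as ASNS. Other kinases, among them one that senses amino acid shortage, act on eIF2alpha too, so the ATF4 genes can be active without the chaperones. Most of these roles were worked out in human, mouse and yeast cells. Here the 11 chaperone and 2 disulfide isomerase genes are called the folding branch, and the 8 genes ATF4, ATF3, DDIT3, TRIB3, PPP1R15A, ASNS, CHAC1 and SESN2 the ATF4-CHOP branch.

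All values are log2 expression, on which 1 unit is a doubling of signal, with a median per array of 5.57 to 5.72. Precision is limited by the number of arrays, and each limma p-value sets the difference between groups against the spread between cows. The liver label held: 10 of 10 hepatocyte markers were above the filter, with a list mean of 12.55 to 12.77 in niacin cows and 12.59 to 12.78 in control cows. In bulk tissue, fewer cells of a type and less RNA per cell cannot be told apart.

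None of the 37 genes passed the test between niacin and control cows, and a few animals, most of them niacin-fed, had high or low values in many of the genes together. How often those animals are high or low over all probe sets is not given here, so this does not show a trait particular to the listed genes. By limma, 0 of the 37 had an adjusted p under 0.05 (lowest 0.474), as did 0 of all 18250 probe sets tested (0%, and 1 probe set without niacin 39). At an unadjusted p under 0.05, ATF3, CRELD2 and SDF2L1 were higher in niacin cows, which is 3 of 37 genes, and 0 were lower. The 3 became 1 without control 36, niacin 3, niacin 8 or niacin 14, and 5 without niacin 15. Over all probe sets the same threshold took 3.34% as higher and 4.41% as lower, or 609 and 804 probe sets. The log2 fold change was above 0 in 30 of the 37 genes and in 53.8% of all probe sets, with medians of 0.08 and 0.01. That count of 30 moved with single cows. Without niacin 14 it was 22, and without niacin 8 and 14 together, a choice made after seeing the data, it was 15.

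**Figure D1:**
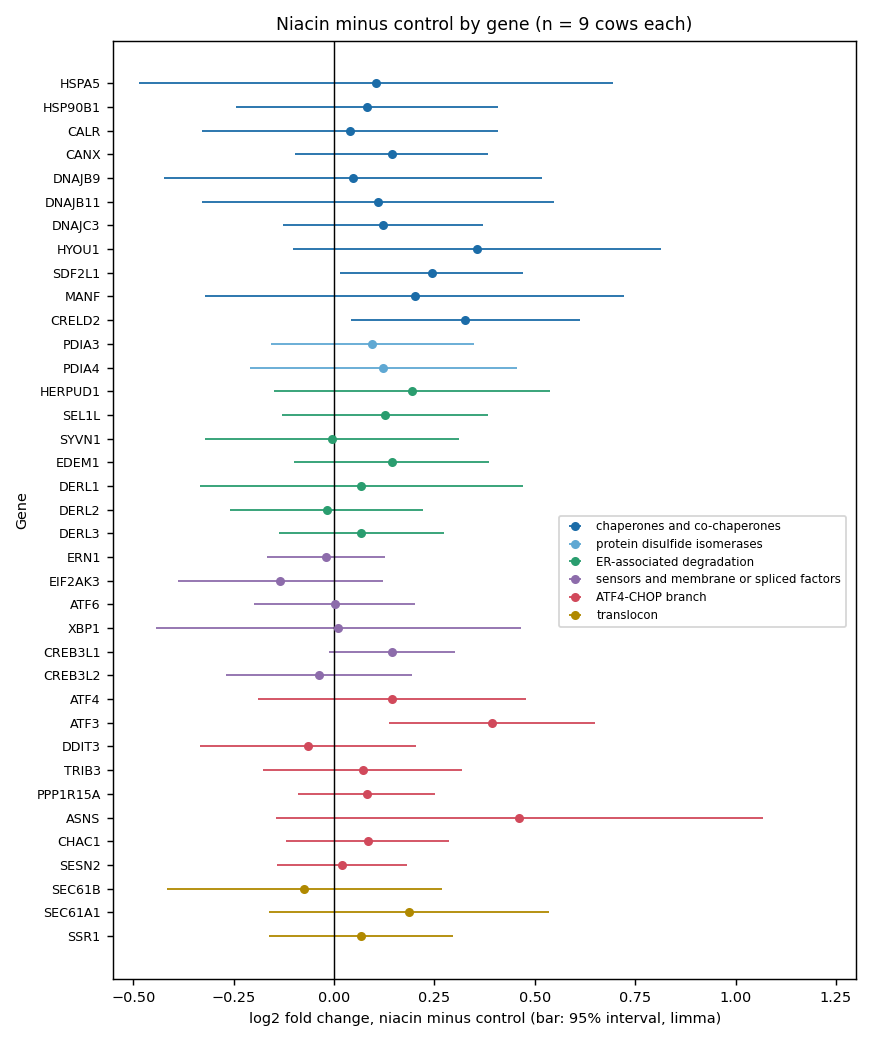
Log2 fold change of each of the 37 genes, niacin minus control (points, n = 9 cows each), with its 95% interval from limma (bars) and colours for the 6 role groups. Of the 37 points, 30 lie above 0, and the intervals of ATF3, CRELD2 and SDF2L1 leave out 0 before adjustment.

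HSPA5 encodes BiP, the ER Hsp70 that holds the sensors inactive and is the classic readout of ATF6 activity. It lay between 8.63 and 11.29 in niacin cows (median 10.00) and between 9.07 and 10.86 in control cows (median 10.15). The groups overlapped throughout, with both the highest animal, niacin 14, and the lowest, niacin 15, in the niacin group. The means were 10.08 ± 0.78 in niacin cows and 9.98 ± 0.58 in control cows (SD, n = 9 each). Between groups the log2 fold change was 0.10 ± 0.28 (SE; adjusted p = 0.958, limma), and it was -0.05 without niacin 14, -0.01 without control 42 and 0.29 without niacin 15. Across all 18 animals HSPA5 spanned 2.66 log2 units, or 6.32-fold.

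The other abundant lumenal chaperones also had wide niacin values around similar medians. HSP90B1, the ER Hsp90 (GRP94), lay between 10.26 and 11.50 in niacin cows (median 10.77) and between 10.33 and 11.22 in control cows (median 10.79). CALR, the calcium-binding lectin chaperone calreticulin, lay between 9.81 and 11.73 in niacin cows (median 11.15) and between 10.58 and 11.35 in control cows (median 11.10). Its lowest value, in niacin 15, stood apart from the next animal of that group, which had 10.91. For HSP90B1 the log2 fold change was 0.08 ± 0.16 and for CALR 0.04 ± 0.18 (SE; adjusted p = 0.936 and 0.977, limma). CANX, the membrane-bound lectin chaperone calnexin, had a log2 fold change of 0.14 ± 0.12.

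Among the BiP partners, DNAJB9 (ERdj4), DNAJB11 (ERdj3) and DNAJC3 (p58IPK) supply J domains that drive the ATPase of BiP, and HYOU1 (GRP170) acts as its nucleotide exchange factor. HYOU1 lay between 7.12 and 8.99 in niacin cows (median 7.87) and between 7.12 and 8.51 in control cows (median 7.65). Its log2 fold change was 0.36 ± 0.22 (SE; adjusted p = 0.729, limma), with 6 of 9 niacin animals over the control median. The 3 J-domain genes had log2 fold changes of 0.05 to 0.12. DNAJB9 was one of the few genes with its highest value in a control animal: it reached 8.23 in niacin 14 and 8.36 in control 23.

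CRELD2 and SDF2L1 are small ER-resident proteins, SDF2L1 a partner of the BiP and ERdj3 complex and CRELD2 a disulfide isomerase-like protein that ATF6 raises in mouse cells. CRELD2 lay between 6.91 and 8.10 in niacin cows (median 7.43) and between 6.86 and 7.38 in control cows (median 7.17). Niacin 3, 7, 8, 14 and 40 were above the highest control animal, while the other 4 niacin cows lay inside the control range. Niacin minus control, the log2 fold change was 0.33 ± 0.14, 1.25-fold, with a limma p of 0.0266 unadjusted and 0.588 adjusted, and an exact permutation p of 0.0457. Without niacin 14 it was 0.25, with an unadjusted limma p of 0.0620. SDF2L1 lay between 7.03 and 7.72 in niacin cows (median 7.17) and between 6.66 and 7.41 in control cows (median 7.09), with niacin 3, 8 and 14 on top. Its log2 fold change was 0.24 ± 0.11 (SE), the limma p 0.0379 unadjusted and 0.612 adjusted, and the exact permutation p 0.0533. Without niacin 14 the fold change was 0.19 and without control 42 also 0.19, each with an unadjusted p above 0.05.

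MANF, a secreted ER protein that slows nucleotide exchange on BiP, lay between 6.35 and 8.71 in niacin cows (median 7.31) and between 6.68 and 8.15 in control cows (median 7.11). Niacin 14 was again highest and niacin 15 lowest. Its fold change on the log2 scale was 0.20 ± 0.25 (SE; adjusted p = 0.888, limma) and 0.05 without niacin 14.

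PDIA3 (ERp57), the isomerase that works with calreticulin and calnexin, and PDIA4 (ERp72) form and rearrange disulfide bonds in secreted proteins. PDIA4 lay between 8.89 and 10.45 in niacin cows (median 9.58) and between 9.14 and 9.80 in control cows (median 9.65). Niacin 3, 8 and 14 exceeded the control range and niacin 15 fell short of it. PDIA3 lay between 10.44 and 11.41 in niacin cows (median 10.80) and between 10.38 and 11.05 in control cows (median 10.81). The log2 fold changes were 0.12 ± 0.16 for PDIA4 and 0.10 ± 0.12 for PDIA3 (SE; adjusted p = 0.894 and 0.890, limma). PDIA4 was at 0.03 without niacin 3 and 0.23 without niacin 15, and PDIA3 at 0.03 without niacin 8 and 0.16 without niacin 15. In both genes more niacin cows, 5 of 9, lay below the control median than above it.

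All 13 genes of the folding branch had a log2 fold change above 0, against 53.8% of all probe sets. Because they move together across cows, 13 is not a count of independent results. Their spread within the niacin group was wider than the difference between groups. Without niacin 8 and 14, a choice made after seeing the data, HSPA5, MANF, PDIA3 and PDIA4 were below 0, while SDF2L1 and CRELD2 stayed above it. The difference in the branch mean was then -0.0058. The SD was larger in niacin than in control cows in every one of the 13, by 1.29-fold (SDF2L1) to 2.57-fold (PDIA4), and in 59.1% of all probe sets.

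**Figure D2:**
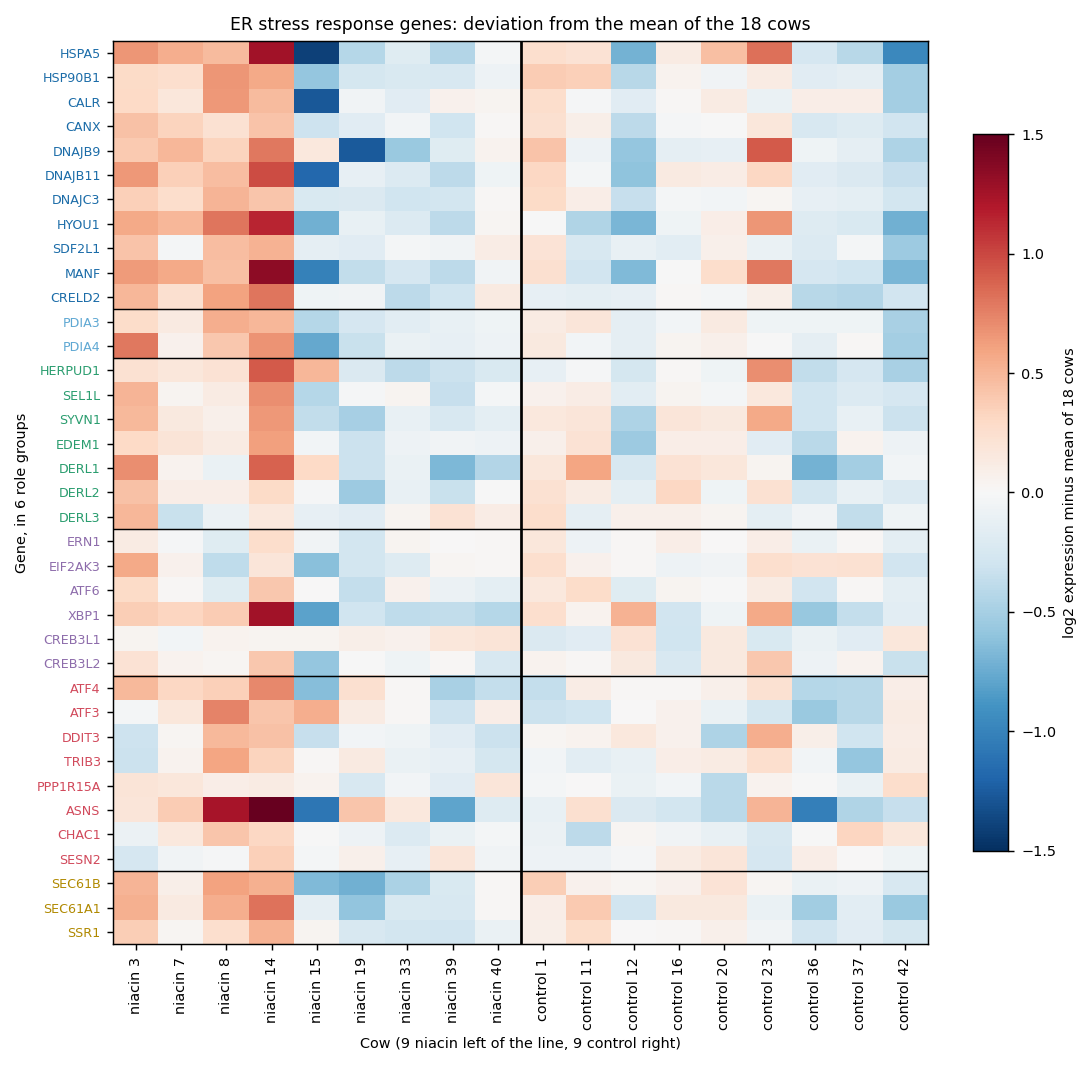
Deviation of each gene (rows, 6 role groups) in each cow (columns, 9 niacin left of the line, 9 control right) from its mean over 18 cows, in log2 units by colour. The column of niacin 14 is above the mean in all 37 genes, and that of niacin 15 is above it in 9. The matching shares of all probe sets are not given here.

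ER-associated degradation removes proteins that fail to fold. SEL1L and SYVN1 (HRD1) form the ubiquitin ligase, DERL1, DERL2 and DERL3 belong to its membrane channel, EDEM1 trims mannose from doomed glycoproteins, and HERPUD1 is a ligase cofactor. HERPUD1 lay between 7.87 and 9.19 in niacin cows (median 8.44) and between 7.78 and 8.96 in control cows (median 8.14). The control high point, control 23, stood apart from the next control animal, which had 8.28. The log2 fold change was 0.19 ± 0.17 (SE; adjusted p = 0.826, limma), and 0.09 without niacin 14.

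EDEM1 lay between 7.57 and 8.51 in niacin cows (median 7.85) and between 7.35 and 8.11 in control cows (median 7.95), a log2 fold change of 0.14 ± 0.12 (SE; adjusted p = 0.813, limma) that was 0.08 without niacin 14. DERL1 lay between 8.78 and 10.34 in niacin cows (median 9.36) and between 8.75 and 10.05 in control cows (median 9.50). Its log2 fold change of 0.07 ± 0.19 (SE; adjusted p = 0.959, limma) was -0.04 without niacin 14 and -0.02 without niacin 3 or control 36. In EDEM1 and DERL1 alike the niacin mean was above the control mean while the niacin median was below the control median. SEL1L, SYVN1, DERL2 and DERL3 had log2 fold changes between -0.02 and 0.13. DERL3, the derlin best known from secretory cells, stood apart from its relatives: its Pearson r with the folding branch mean was 0.28 over 18 cows, against 0.51 for DERL1 and 0.70 for DERL2. It was also dim, with a mean of 5.515 over 18 cows, below every array median, against 9.46 for DERL1 and 9.09 for DERL2.

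Transcripts of the sensors were close to level between the groups. ERN1, the kinase and nuclease that splices XBP1 mRNA, had a log2 fold change of -0.02 ± 0.07, and ATF6, the factor released by cleavage in the Golgi, 0.00 ± 0.10. These 2 genes had small spreads too, with an SD over 18 cows of 0.13 and 0.20, and activation of either sensor happens at the protein level, which was not measured. EIF2AK3 lay between 6.02 and 7.21 in niacin cows (median 6.66) and between 6.35 and 6.89 in control cows (median 6.71). Its log2 fold change of -0.13 ± 0.12 (SE; adjusted p = 0.837, limma) was the lowest of the 37 genes. It was -0.21 without niacin 3 and -0.07 without niacin 15.

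XBP1 encodes the factor whose spliced form raises secretory capacity, and the annotation used here does not say whether its probe set separates spliced from unspliced mRNA. It lay between 9.34 and 11.40 in niacin cows (median 9.84) and between 9.58 and 10.71 in control cows (median 10.08). Niacin 14 was highest of all 18, ahead of control 23 at 10.71, and niacin 15 was lowest. Between groups the log2 fold change was 0.01 ± 0.22 (SE; adjusted p = 0.996, limma). It was -0.15 without niacin 14 and 0.11 without niacin 15, and it was below 0 on leaving out any 1 of 8 cows (niacin 3, 7, 8 or 14, or control 16, 36, 37 or 42).

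CREB3L1 (OASIS), a membrane-tethered factor related to ATF6, went against the wide niacin spread. It lay between 6.08 and 6.32 in niacin cows (median 6.18) and between 5.83 and 6.34 in control cows (median 5.96). All 9 niacin cows were above the control median, yet 3 control animals, cows 12, 20 and 42, were as high as the niacin cows. The SD was 0.07 in niacin cows and 0.19 in control cows. Niacin minus control, the log2 fold change was 0.14 ± 0.08 (SE), with a limma p of 0.0680 unadjusted and 0.664 adjusted, and an exact permutation p of 0.0554. Its relative CREB3L2 had a log2 fold change of -0.04 ± 0.11.

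**Figure D3:**
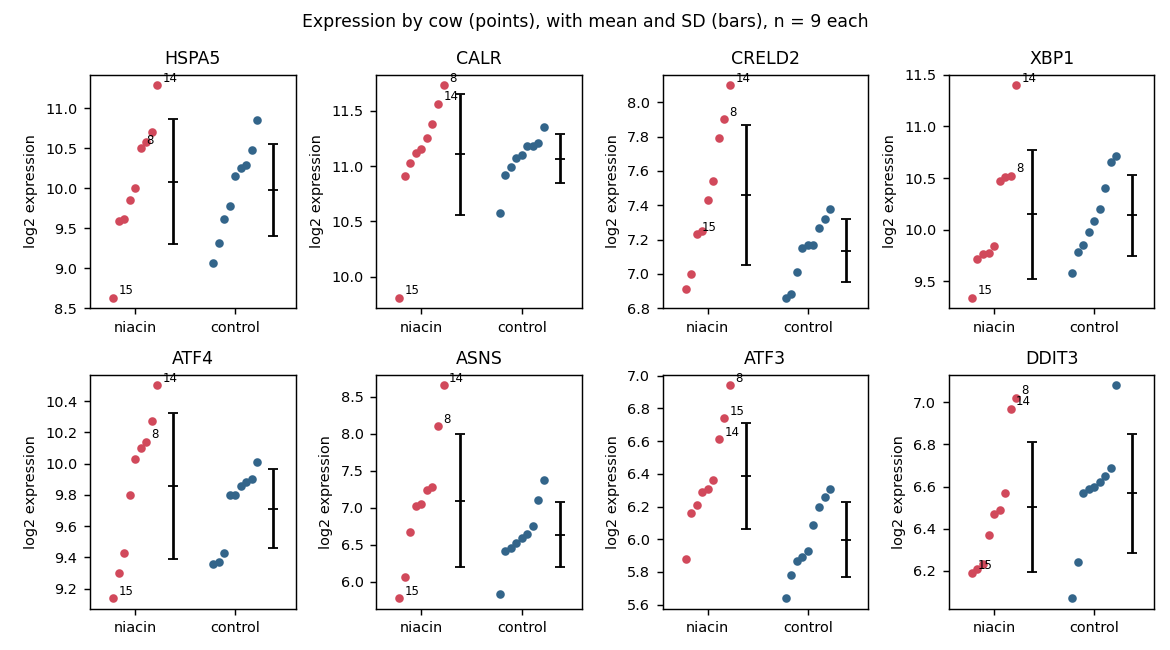
Log2 expression by cow (points) with mean and SD (bars) for 8 genes, niacin left and control right, n = 9 each. The niacin points reach beyond the control points at both ends in HSPA5, XBP1 and ASNS, and ATF3 has 4 niacin points above the highest control point.

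In the ATF4-CHOP branch, ATF3 had the smallest p of all 37 genes. ATF3, a stress-induced repressor and activator of transcription, lay between 5.88 and 6.94 in niacin cows (median 6.31) and between 5.64 and 6.31 in control cows (median 5.93). Niacin 7, 8, 14 and 15 were above the highest control animal, with 8 of 9 niacin animals over the control median. The SD was 0.32 in niacin cows and 0.23 in control cows (n = 9 each). Its fold change on the log2 scale was 0.39 ± 0.12 (SE), 1.31-fold, with a limma p of 0.00448 unadjusted and 0.474 adjusted, and an exact permutation p of 0.00905. It stayed between 0.32 and 0.46 on leaving out any 1 cow.

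ATF4, the transcription factor that gives the branch its name and is itself set mainly by translation, lay between 9.14 and 10.50 in niacin cows (median 10.03) and between 9.36 and 10.01 in control cows (median 9.80). Niacin 3, 7, 8, 14 and 19 were above the highest control animal, and niacin 15 and 39 below the lowest. The log2 fold change was 0.14 ± 0.16 (SE; adjusted p = 0.875, limma). It was 0.06 without niacin 14, 0.23 without niacin 15 and 0.01 without niacin 8 and 14.

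ASNS, asparagine synthetase, a textbook ATF4 target in amino acid shortage, had the largest fold change and the widest range of the 37 genes. It lay between 5.78 and 8.65 in niacin cows (median 7.05) and between 5.84 and 7.38 in control cows (median 6.59). Niacin 14, at 8.65, and niacin 8, at 8.10, were the only animals above the highest control animal, and niacin 15 was lowest of all. The means were 7.10 ± 0.90 in niacin cows and 6.63 ± 0.44 in control cows (SD, n = 9 each). Between groups the log2 fold change was 0.46 ± 0.29 (SE; adjusted p = 0.741, limma, exact permutation p = 0.191), and 0.27 without niacin 14. Over 18 cows ASNS spanned 7.31-fold.

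DDIT3, the pro-apoptotic factor CHOP, was the only gene of the branch with a fold change below 0. It lay between 6.19 and 7.02 in niacin cows (median 6.47) and between 6.07 and 7.08 in control cows (median 6.60). Only niacin 8 and 14 were above the control median, and the top value belonged to control 23. Niacin minus control, the log2 fold change was -0.07 ± 0.13 (SE; adjusted p = 0.940, limma), -0.0015 without control 23 and -0.13 without niacin 8.

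TRIB3, a pseudokinase that CHOP and ATF4 raise, lay between 5.33 and 6.25 in niacin cows (median 5.67) and between 5.07 and 5.91 in control cows (median 5.62), with niacin 8 highest. Its log2 fold change was 0.07 ± 0.12 (SE; adjusted p = 0.927, limma), and 0.0012 without niacin 8. PPP1R15A (GADD34), which directs a phosphatase to eIF2alpha, CHAC1, which degrades glutathione, and SESN2, a leucine sensor that restrains mTORC1, had log2 fold changes of 0.08, 0.08 and 0.02. CHAC1 averaged 4.56 over 18 cows, close to the lowest mean tested of 4.35, so its values lie near the dim end of the array.

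At the translocon, through which new chains enter the ER, SEC61A1 is the channel, SEC61B a small subunit and SSR1 part of the associated TRAP complex. SEC61A1 lay between 8.07 and 9.48 in niacin cows (median 8.68) and between 8.10 and 9.05 in control cows (median 8.56), a log2 fold change of 0.19 ± 0.17 (SE; adjusted p = 0.836, limma) that was 0.10 without niacin 14. SEC61B lay between 6.61 and 7.94 in niacin cows (median 7.35) and between 7.09 and 7.70 in control cows (median 7.37). Its SD was 0.52 in niacin cows and 0.18 in control cows, 2.94-fold and the widest such ratio of the 37 genes. Niacin 3, 8 and 14 were above the control range and niacin 15, 19 and 33 below it. In SEC61B the log2 fold change was -0.07 ± 0.16 and in SSR1 0.07 ± 0.11 (SE; adjusted p = 0.949 and 0.925, limma). Without niacin 19 the SEC61B value was 0.012 and without niacin 15 it was 0.0040, and the SSR1 value was 0.0061 without niacin 14.

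Spread within groups was described for the same genes. The SD was larger in niacin than in control cows in 34 of 37 genes, against 59.1% of all 18250 probe sets. The exceptions were CREB3L1, PPP1R15A and CHAC1. The median SD of the 37 genes was 0.35 in niacin cows and 0.22 in control cows. Because the genes move together across cows, 34 is not a count of independent results, and no test was made of it. Without niacin 14 and 15, a choice made after seeing the data, the SD was larger in 27 of 37 genes, against 55.3% of all probe sets.

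Niacin 14 was above the mean of the 18 cows in 37 of 37 genes, among the top 3 animals in 33 and highest in 20, ties included. Niacin 8 was highest in 8 genes, 4 of them in the folding branch and 3 in the ATF4-CHOP branch (ATF3, TRIB3 and CHAC1). Niacin 3 was highest in 5, among them CANX, PDIA4 and EIF2AK3, while its TRIB3, at 5.33, was the lowest of the niacin group. Control 23 was the high control animal, highest of all 18 in DNAJB9, DDIT3 and, in a tie with niacin 14, CREB3L2. The share of all probe sets in which each animal is highest or lowest is not given here. These counts therefore do not show a trait particular to the listed genes.

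Niacin 15 was lowest in 13 genes, 7 of them in the folding branch, but it was not low throughout. HSPA5, CALR, MANF, XBP1, ATF4 and ASNS were lowest there, while its ATF3 of 6.74 ranked 2 of 18, its HERPUD1 of 8.76 ranked 3 and its DERL1 of 9.76 ranked 4. This array also had the lowest mean correlation with the other arrays, 0.963 in a range of 0.963 to 0.977, and its part in these values was not tested. Niacin 8 had the second lowest, 0.966, and niacin 14 had 0.972. The limma array weight of niacin 15 was 0.60, with niacin 39 lower at 0.57. On the cell type marker lists niacin 15 ranked from 2 of 18 (plasma and B cell) to 18 of 18 (hepatocyte, at 12.55). The part of these in its values was not tested either. For niacin 15 too, the share of all probe sets in which it is lowest is not given here.

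To set the branches side by side, each gene was expressed relative to its mean over 18 cows and averaged over its branch. The folding branch lay between -0.61 and 0.76 in niacin cows and between -0.51 and 0.28 in control cows. Niacin 3, 7, 8 and 14 exceeded the highest control animal, and niacin 15 was below the lowest. The means were 0.08 ± 0.46 in niacin cows and -0.08 ± 0.26 in control cows (SD, n = 9 each), a difference of 0.15, while the medians differed by 0.03. The difference was 0.07 without niacin 14 and 0.24 without niacin 15.

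The ATF4-CHOP branch lay between -0.25 and 0.56 in niacin cows and between -0.24 and 0.10 in control cows. Niacin 7, 8 and 14 exceeded the highest control animal. The means were 0.07 ± 0.28 in niacin cows and -0.07 ± 0.12 in control cows (SD, n = 9 each), a difference of 0.15. That difference was 0.09 without niacin 14. Without niacin 8 and 14 it was 0.02, and that of the folding branch -0.0058. Of the 8 genes, ASNS and ATF3 had the largest log2 fold changes, 0.46 and 0.39, and ATF4 came next at 0.14. With the median over genes in place of the mean, the difference was 0.11 in the ATF4-CHOP branch and 0.16 in the folding branch. Folding minus ATF4-CHOP differed by 0.005, with an SD of 0.29 in both groups. The value 0.005 took either sign on leaving out 1 cow, from -0.07 to 0.06.

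High cows differed in which branch was high. Niacin 14 was high in both, at 0.76 in the folding branch and 0.56 in the ATF4-CHOP branch, as was niacin 8, at 0.51 and 0.49. Of these 2 branch means, niacin 3 was high in the folding one alone, at 0.48 against -0.02 in the ATF4-CHOP branch, the widest positive gap of the 18. Within the ATF4-CHOP branch its ATF4 and PPP1R15A ranked 2 of 18, its DDIT3 15 and its TRIB3 and SESN2 17. Niacin 3 was also high in the translocon (0.47) and degradation genes (0.45). Control 42 had the widest negative gap, at -0.51 in the folding branch and 0.06 in the ATF4-CHOP branch, and niacin 19 stood at -0.29 and 0.08.

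**Figure D4:**
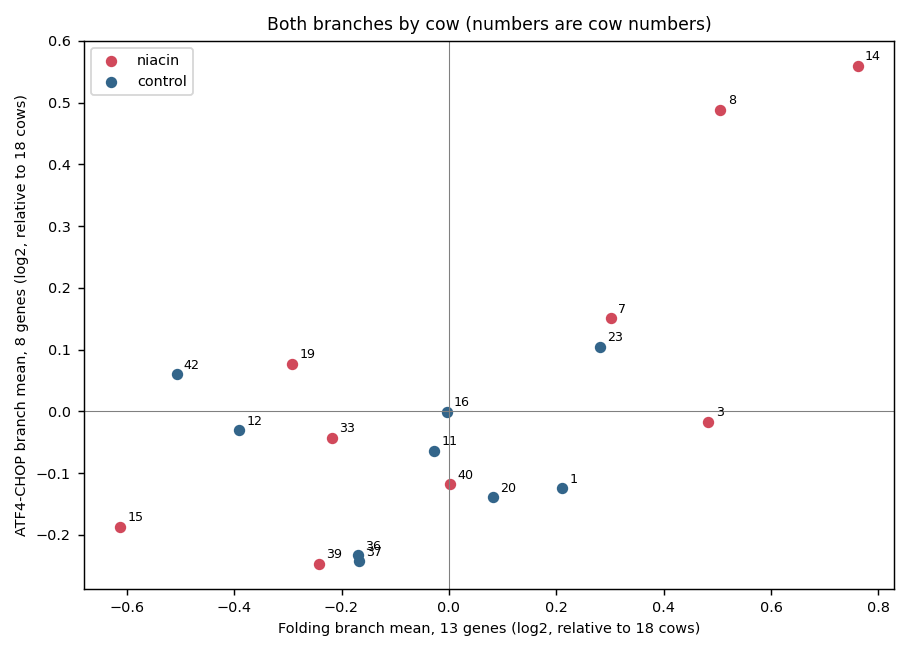
Mean of the 13 folding branch genes (horizontal) against mean of the 8 ATF4-CHOP branch genes (vertical) in each cow, in log2 units relative to 18 cows, by group, with cow numbers. Niacin 8 and 14 are alone at the upper right, niacin 3 is high on the horizontal axis alone, and the control cows stay between -0.24 and 0.10 on the vertical axis.

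Across the 18 cows the branch means had a Pearson r of 0.66 (Spearman rho 0.48). Within niacin cows r was 0.79 and within control cows 0.01 (n = 9 each), and the difference between these was not tested. Without niacin 14 and 15 r was 0.46, and without niacin 8 and 14 it was 0.30, so the pooled value moved with those 3 animals. The points share arrays and normalization, and these correlations are a description. The folding branch mean had r of 0.87 with that of the translocon, 0.80 with degradation genes and 0.77 with sensors. Without niacin 14 and 15 these were 0.83, 0.81 and 0.59, within niacin cows 0.93, 0.80 and 0.88, and within control cows 0.68, 0.80 and 0.55. No difference between these values was tested.

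Gene by gene, the listed members sorted mostly by role over the 18 cows, some of them by small margins. The median Pearson r with the folding branch mean, each gene left out of its own mean, was 0.92 for chaperones and 0.90 for the isomerases. It was 0.83 for the translocon, 0.69 for degradation genes, 0.55 for sensors and 0.30 for ATF4-CHOP genes, against -0.05 over all probe sets. With the ATF4-CHOP branch mean the order differed: ATF4-CHOP genes had a median of 0.59, chaperones 0.61, and sensors 0.15. Over the 18 cows, 8 of 8 ATF4-CHOP genes were closer to their own branch mean and 10 of 11 chaperones to theirs, against 54.3% and 45.7% of all probe sets. Some margins were small: SESN2 had 0.085 against 0.057, PPP1R15A 0.293 against 0.257 and ASNS 0.795 against 0.763. Within niacin cows the counts were 6 of 8 (not ATF4 and PPP1R15A) and 11 of 11, and within control cows 6 of 8 (not ASNS and SESN2) and 10 of 11.

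The exception among chaperones was CRELD2, with r of 0.78 to the folding branch and 0.81 to the ATF4-CHOP branch. Over all cows, ATF4 and ASNS followed both branches, at 0.67 and 0.76 to folding and 0.73 and 0.80 to ATF4-CHOP. So did XBP1, at 0.76 and 0.74. To folding, r for ATF4, ASNS and XBP1 was 0.84, 0.83 and 0.94 within niacin cows. Within control cows it was 0.05, 0.47 and 0.30, and without niacin 14 and 15 it was 0.45, 0.58 and 0.565. To ATF4-CHOP these genes had 0.72, 0.89 and 0.85 within niacin cows and 0.73, 0.31 and 0.59 within control cows. Without niacin 14 and 15 they had 0.64, 0.73 and 0.56. ATF3 was far from the folding branch, at 0.18, and SESN2 was near 0 with both over all cows, at 0.06 and 0.08. SESN2 had -0.40 with both without niacin 14 and 15. Within niacin cows it had 0.145 and 0.32, and within control cows -0.19 and -0.64. CREB3L1 had a weak negative r with the folding branch over all cows, at -0.26. It was -0.355 within niacin cows and -0.65 within control cows, and none of these was tested. EIF2AK3 had 0.52 with the folding branch and -0.11 with the branch its kinase drives.

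**Figure D5:**
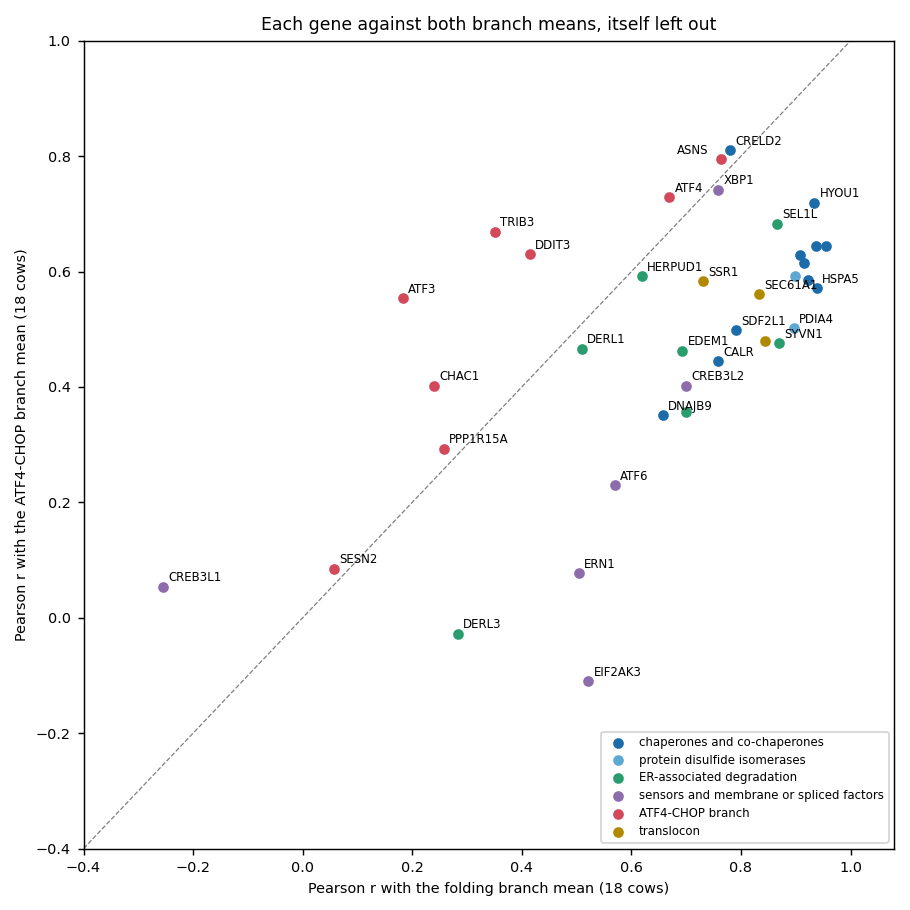
Pearson r over 18 cows of each of the 37 genes with the folding branch mean (horizontal) and the ATF4-CHOP branch mean (vertical), the gene itself left out, coloured by role; the dashed line marks equal values, and 8 genes are unlabelled for space. Chaperones other than CRELD2 lie below the line, and the 8 ATF4-CHOP genes lie above it.

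Correlations of 8 gene pairs across the 18 cows were tested by permutation, with p-values adjusted over the 8. HSPA5 and HSP90B1, both targets of ATF6, had r of 0.88 (rho 0.90, adjusted permutation p = 8e-05 for both), and 0.82 without niacin 14 and 15. Within niacin cows r was 0.92 and within control cows 0.80. The unadjusted p of 1e-05 is the smallest that the resamples can give. ATF4 and its target ASNS had r of 0.85 (rho 0.86, adjusted permutation p = 8e-05 for both), 0.76 without niacin 14 and 15, 0.90 within niacin cows and 0.67 within control cows. For these 2 pairs, each within a branch, r was positive in both groups, and r within groups was not tested.

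HSPA5 was also set against the transcription factors. XBP1 and HSPA5 had r of 0.74 (rho 0.67, adjusted permutation p = 0.00149 and 0.0062), 0.94 within niacin cows and 0.31 within control cows. HSPA5 and ATF4 had r of 0.69 (rho 0.69, adjusted permutation p = 0.00292 and 0.00501), 0.87 within niacin cows and 0.26 within control cows. Without niacin 14 and 15, the animals farthest from the median, r was 0.53 and 0.46 with adjusted permutation p of 0.0768 and 0.113, so neither relation passed the test in the 16 other cows, whose range is narrower. Without niacin 8 and 14, r was 0.62 and 0.57 with adjusted permutation p of 0.0293 and 0.0429, and both relations passed on leaving out any single cow. HSPA5 and DDIT3, the usual readouts of the 2 branches, had r of 0.41 (rho 0.26, adjusted permutation p = 0.106 and 0.34), and 0.15 without niacin 14 and 15.

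Among the ATF4-CHOP genes, DDIT3 and TRIB3 had r of 0.68 (rho 0.54, adjusted permutation p = 0.00318 and 0.038), 0.90 within niacin cows and 0.46 within control cows. Without control 20 and 23, the animals farthest from the median of DDIT3, r was 0.80, and without niacin 8 and 14 it was 0.50 (adjusted permutation p = 0.0807). ATF4 and DDIT3 had r of 0.51 (rho 0.42, adjusted permutation p = 0.0414 and 0.11), and 0.32 without niacin 14 and 15. That p moved above 0.05 on leaving out any 1 of 11 cows (niacin 8, 14, 15, 33, 39 or 40, or control 11, 16, 23, 37 or 42). DDIT3 and ATF3 had r of 0.21 (rho 0.13, adjusted permutation p = 0.397 and 0.612), 0.35 without control 20 and 23.

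Genes outside the list that resembled the branch means most over 18 cows were ranked by Pearson r, with no p. For the folding branch they were SLC33A1, the ER acetyl-CoA transporter (0.94), GOLPH3L (0.92), the COPII coat gene SEC23B (0.91), NUCB2 (0.90), the thiol chaperone ERP44 (0.90), the oligosaccharyltransferase subunit OSTC (0.89), GMPPB (0.88) and GFPT1 (0.87). For the ATF4-CHOP branch they were RAB5IF (0.92), HOPX (0.853), TIMM10B (0.846), PHLDA1 (0.845), PPP1R18, ABCA3 and MTA2 (0.84 each) and ARF6 (0.83). Without niacin 14 and 15 the first set stayed between 0.83 and 0.92 and the second between 0.74 and 0.86. Within control cows the first set had r of 0.74 to 0.95 and the second 0.43 (ARF6) to 0.80 (RAB5IF). Both sets were picked for high r in these same cows.

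Other genes of the same pathways were read from lists chosen by function. Of 39 tested genes for further ER folding and degradation, 1 was higher and 1 lower at an unadjusted limma p under 0.05, with a median log2 fold change of 0.00. Over all probe sets, 3.34% were higher and 4.41% lower at that threshold. QSOX1, a sulfhydryl oxidase, had a log2 fold change of 0.33 ± 0.13 and KDELR1, the receptor that returns ER proteins from the Golgi, -0.16 ± 0.08 (SE; adjusted p = 0.566 and 0.645, limma). Of 26 tested genes for the translocon and signal peptide processing, 0 passed in either direction, with a median of 0.05. Above 0 were 18 of the 26, against 53.8% of all probe sets. The median r of these 26 genes was 0.74 with the folding branch and 0.52 with the ATF4-CHOP branch. For the list of further ER folding and degradation genes it was 0.46 and 0.32.

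Of 36 tested genes of the wider integrated stress response, 2 were higher at an unadjusted p under 0.05 and 0 lower, with a median log2 fold change of 0.02. That threshold took 3.34% of all probe sets as higher and 4.41% as lower. The median r of the list was 0.348 with the folding branch and 0.345 with the ATF4-CHOP branch, so it was no closer to the latter. SLC3A2, the heavy chain of amino acid transporters, lay between 7.08 and 8.05 in niacin cows (median 7.46) and between 6.85 and 7.48 in control cows (median 7.12). Its log2 fold change was 0.33 ± 0.11 (SE, limma p = 0.00844 unadjusted and 0.496 adjusted, exact permutation p = 0.0127), and its highest animals were niacin 14, at 8.05, and niacin 15, at 7.81. DDIT4, an inhibitor of mTORC1, had a log2 fold change of 0.30 ± 0.14 (SE; adjusted p = 0.636, limma). Across these 3 lists 0 genes had an adjusted p under 0.05.

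Markers of other cells moved with the branches in some animals. The neutrophil list (7 of 8 markers measured, all above the filter) had a mean of 5.54 to 6.74 in niacin cows and 5.36 to 5.79 in control cows. Niacin 8, at 6.74, and niacin 14, at 6.06, ranked 1 and 2, and r over 18 cows was 0.40 with the folding branch and 0.76 with the ATF4-CHOP branch. The red cell list (6 of 7 measured, all above the filter) had a mean of 4.96 to 7.23 in niacin cows, with niacin 8 highest, and 4.87 to 5.65 in control cows, and r was 0.35 and 0.59. The T and NK cell list (10 of 10 above the filter) lay between 5.51 and 6.16 in niacin cows and between 5.45 and 5.92 in control cows, with r of 0.23 and 0.60. In the neutrophil and red cell lists niacin 8 was far above the next animal, and r without it is not given here. S100A8, HBM and AHSP averaged 4.42, 4.42 and 4.50 over 18 cows, close to the lowest mean tested of 4.35. The part of neutrophils, red cells, and T and NK cells in the ATF4-CHOP values was not tested.

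Plasma cells, which secrete antibody, depend on XBP1 in mouse. The plasma and B cell list (10 of 11 measured, TNFRSF17 and FCRLA below the filter) lay between 5.07 and 5.28 in niacin cows and between 4.94 and 5.40 in control cows. Its r with the folding branch was -0.57 over 18 cows. Of the 3 cows highest in that branch, niacin 14 ranked 17 of 18 on the list, niacin 8 ranked 11 and niacin 3 ranked 6. The macrophage list (11 of 11 above the filter) lay between 8.23 and 9.07 in niacin cows and between 8.12 and 8.68 in control cows, with r of 0.21 and 0.27. The bile duct list (6 of 6 measured, SPP1 below the filter) lay between 4.91 and 6.13 in niacin cows and between 5.35 and 5.69 in control cows, the stellate cell list (9 of 10 measured) between 6.25 and 7.03 in niacin cows and between 5.97 and 7.78 in control cows, and the endothelial list (7 of 7) between 7.74 and 8.13 in niacin cows and between 7.59 and 8.12 in control cows. None of these markers was listed at 0.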

How the data were processed

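Total RNA from liver biopsies of 18 cows (9 niacin, 9 control) was hybridised to 18 arrays, 1 for each animal. The study held 22 cows, 11 per group, per the labels' protocols, and the 2 samples per group with the lowest RNA integrity number were left out; the number was 7.2 ± 0.5 (SD) over the rest. The deposited values are log2 expression per probe set, made by the authors with Affymetrix Expression Console and RMA per the submitters' processing notes; their versions are not given in the sources used here. RMA makes array distributions alike and would hide a shift of most genes at once. No batch, and no integrity number or parity per cow, was given in the sources used here.

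Of 24333 probe sets, 18457 had 1 gene symbol, 688 several and 5188 none. The lowest share of 0.25 by mean over 18 arrays (6083 probe sets) was left out, which left 18250, among them all 37 measured genes. Niacin minus control was fitted with limma 3.58.1 (lmFit, eBayes, R 4.3.3), two-sided, with Benjamini-Hochberg adjustment over the 18250. Exact two-sided permutation p-values used all 48620 splits of the cows, and pair correlations 100000 resamples (Python 3.11.15, scipy 1.17.1). The fit was tested on simulated data. Full statistics were given, in each of 6 role groups, to the 2 genes with the smallest p and the 2 with the widest SD, plus HSPA5, XBP1, ATF4, DDIT3, ATF3, ASNS and TRIB3. Values of other members, given in less detail, were added for the account of their role. The 8 genes most like each branch mean were also named. So were genes among those with the smallest p in the further lists, except the translocon list, of which none was named. The members and lists were chosen with earlier results of these data known. Alternatives were other filters, variance models, array weights, normalizations and branch summaries, and leaving out cows. Promoter and protein sequences were not analysed here.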

Additional observations from a re-analysis of the deposited data

Results flagged for a closer look

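Some animals stood apart from the 8 others of their own group, with a gap to the nearest animal, as a share of the group's whole range, above Dixon's 95% critical value. CALR was 9.81 in niacin 15, where the nearest niacin cow had 10.91. Control 42 had the lowest PDIA3, at 10.38 with the nearest control cow at 10.74, and the lowest PDIA4, at 9.14 with the nearest at 9.52, and hence a disulfide isomerase mean of -0.50 relative to 18 cows, with the nearest at -0.13. HERPUD1 was 8.96 in control 23, where the nearest control cow had 8.28. TRIB3 was 5.07 in control 37, where the nearest control cow had 5.50. These are 6 of 90 groups of 9 examined, and chance gives about 1 in 20.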

How the results depend on the processing

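With 9 cows per group, differences well inside the spread between cows could not be resolved, and depth per probe was not used here. Over 520 alternative values of 20 genes, 0 had an adjusted limma p under 0.05 and 26 had the opposite sign. No paired analysis was possible because cow numbers do not overlap between the groups. Each gene had 1 probe set, so averaging probe sets would give the same values.

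On leaving out each cow, probe sets with an adjusted limma p under 0.05 numbered 0 to 1 (1 without niacin 39), and members higher at an unadjusted p under 0.05 numbered 1 to 5 (1 without control 36, niacin 3, niacin 8 or niacin 14, and 5 without niacin 15). Log2 fold changes spanned -0.046 to 0.29 for HSPA5, -0.038 to 0.16 for DERL1, -0.15 to 0.11 for XBP1 and -0.15 to 0.012 for SEC61B. Pair correlations spanned 0.28 to 0.52 for HSPA5 and DDIT3, 0.40 to 0.65 for ATF4 and DDIT3, and -0.023 to 0.38 for DDIT3 and ATF3. Without niacin 3 or control 20, HSPA5 and DDIT3 had an adjusted permutation p under 0.05.

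Without niacin 14 and 15, 1 member was higher at an unadjusted p under 0.05, log2 fold changes were -0.092 for DERL1, -0.053 for XBP1 and -0.0032 for SSR1, and r was 0.462 for HSPA5 and ATF4, 0.525 for XBP1 and HSPA5 and 0.315 for ATF4 and DDIT3. Without niacin 8 and 14, 1 member was higher, 15 fold changes were above 0, and the values were -0.13 for HSPA5, -0.026 for MANF, -0.039 for PDIA3, -0.015 for PDIA4, -0.034 for DERL1, -0.22 for XBP1, -0.051 for TRIB3 and -0.035 for SSR1. There r was 0.310 for ATF4 and DDIT3, -0.246 for DDIT3 and ATF3 and 0.497 for DDIT3 and TRIB3. Both sets of cows were chosen after seeing the data. Centring arrays on their median gave r of 0.482 for HSPA5 and DDIT3 (adjusted permutation p = 0.0487). Beyond the cows left out, the cause was not tested.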

Other observations

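Cytosolic heat shock genes, the chaperones of the compartment outside the ER, were high in some of the same animals. The list mean over 11 measured genes of 15 (HSPA1L and HSPA6 below the filter) lay between 7.49 and 7.99 in niacin cows and between 7.51 and 7.75 in control cows, and niacin 8, 7 and 14 ranked 1, 2 and 3. Its Pearson r over 18 cows was 0.54 with the folding branch and 0.72 with the ATF4-CHOP branch. HSPA8, the constitutive Hsp70, was 11.42 in niacin 15, its highest value, in the animal with the lowest HSPA5. Of 9 genes tested, 2 were higher and 0 lower at an unadjusted limma p under 0.05, 0 after adjustment, with a median log2 fold change of 0.12. The list is small, and 3.34% of all probe sets were higher and 4.41% lower at the unadjusted threshold. The log2 fold change was 0.24 ± 0.10 for HSPA8 and 0.19 ± 0.09 for DNAJB1 (SE; adjusted p = 0.593 and 0.643, limma).

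FGF21, a fasting hormone that ATF4 and PPARalpha both raise in mouse liver, was 8.61 in niacin 14, the highest of 18 cows. Its group median was 5.88 in niacin cows and 6.67 in control cows, a log2 fold change of -0.87 ± 0.45 (SE; adjusted p = 0.664, limma).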
